A study of Mus musculus with 24 samples.

Results

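The change in gene expression between day 1 and day 3 of 2D culture was described for alveolar epithelial cells (AECs) of Krt8+/+ (WT) mice. Type 2 AECs (AEC2s) make surfactant and serve as progenitors of the flat type 1 cells (AEC1s). After injury or in culture they lose surfactant genes, pass through a keratin-rich transitional state that carries stress and cell cycle programmes, and gain AEC1 genes and contractile features. The comparison took the 3 day 3 libraries against the 3 day 1 libraries, paired by the date in their labels, so that 6 of the 24 libraries of the series were compared directly. The study isolated AEC2s from Krt8+/+ mice and from mice without Krt8 in any tissue (Krt8-/-, KO), and sequenced RNA of the fresh cells (day 0) and of cells kept for 1, 3 or 7 days on a stiff substrate coated with laminin. Each library carries 1 of 3 dates as its batch and the biological replicate number that goes with it, and libraries of 1 date and genotype are called an isolation here, although no label says what the date marks. The labels give no age, sex or strain for the mice. Every gene that passed a filter on low counts was tested, 18046 in all. A value in CPM is the count of a gene per 1000000 counts of its library, scaled with edgeR's TMM factors, and values are given in the order of isolations 1, 2 and 3. A log2 difference is the fitted change of a gene from day 1 to day 3, positive when day 3 was higher, with its standard error (SE) and a p value from edgeR's quasi-likelihood test, adjusted by Benjamini-Hochberg over all genes tested. A gene is called higher or lower where the adjusted p is under 0.05. These are bulk libraries, in which fewer cells of a type and less RNA per cell cannot be told apart.

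Krt8, the targeted gene, was counted at 484 to 5088 CPM in the 12 WT libraries and at 21.2 to 47.4 CPM in the 12 KO libraries, so that no library went against its genotype label. The total count of the 6 libraries ranged from 10184439 to 14729425. The WT day 1 library of isolation 2 stood apart from the other day 1 libraries. Its 10 most abundant genes held 7.95% of the counts against 14.1% and 13.7% in isolations 1 and 3, and ribosomal protein genes held 3.45% against 1.42% and 2.20%. The KO day 1 library of the same isolation had like shares, 7.11% and 2.71%. Many AEC2 genes were already low in this library on day 1, and its part in the results was not tested beyond leaving it out. Counts of genes are therefore also given without isolation 1, 2 or 3 where leaving it out moved them by more than 1.5 times.

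Between day 1 and day 3, 2648 genes were higher (14.7% of those tested) and 2188 were lower (12.1%). These shares are the background for each count of list members below, and a count near them says little about its list. At least a 2-fold difference was fitted for 1333 of the higher genes (7.39%) and 1369 of the lower genes (7.59%). The median log2 difference over all genes was −0.035, and the lower and upper quartiles were −0.561 and 0.435. The CPM values of the 2 days did not overlap for 36.2% of all genes. The direction was the same in 3 of 3 isolations for 4684 of the 4836 called genes, and for 4902 of the 13210 genes not called. Calls were made on these same isolations, so this agreement and the medians that follow are in part built in. The median per-isolation log2 difference of the higher genes was 0.81, 1.11 and 0.98, and that of the lower genes was −1.15, −0.92 and −1.15. Without isolation 2, 1391 genes were higher, and without isolation 3, 1590 were higher. The lower genes numbered 1076 without isolation 1 and 890 without isolation 3.

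The called genes were sorted by what they had done from day 0 to day 1, a step in which 4824 genes were higher and 5188 lower (26.7% and 28.7% of those tested). Both steps use the same day 1 libraries, so that a high value there alone makes a rise followed by a fall more likely, and the sorting is a description. Of the genes higher on day 3, 995 were new (not called between day 0 and day 1), 602 continued a rise, and 1051 reversed a fall. Of the genes lower on day 3, 676 were new, 592 continued a fall, and 920 reversed a rise. Without isolation 2, 382 genes reversed a fall, 331 continued a rise and 569 reversed a rise. Without isolation 1, 329 continued a rise, 299 were newly lower, 208 continued a fall and 569 reversed a rise. Without isolation 3, these groups held 372, 291, 266 and 333 genes, and 483 reversed a fall. The plot of all genes shows where the classes lie.

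**Figure D1:**
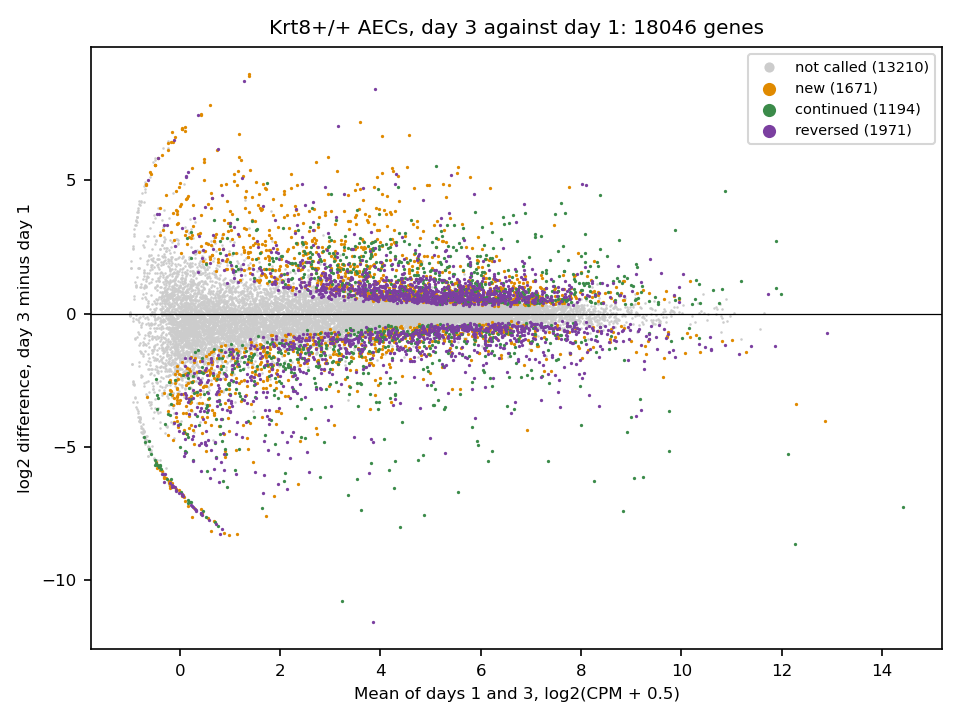
Each point is 1 of the 18046 genes tested. The x axis gives the mean level of days 1 and 3 on the log2(CPM + 0.5) scale and the y axis the fitted log2 difference between day 3 and day 1 in WT AECs, with colours for genes that were new (1671), continued (1194), reversed (1971) or not called (13210). The largest differences among abundant genes lie below 0, and the curved edges at the left are genes with no count on 1 of the days.

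The most complete gain was that of the mitotic genes. All 30 genes listed for mitosis and G2/M were called higher, with a median log2 difference of 4.66, against 14.7% of all genes. This list and the others not taken from the study were chosen with earlier results of these data known. Their counts are a description and not independent evidence of direction. Of the 30, 24 were new, 2 continued a rise and 4 reversed a fall. The mean of log2(CPM + 0.5) over these genes was 1.48, 2.16 and 1.61 on day 0, 1.43, 1.05 and 1.69 on day 1 and 5.71, 5.49 and 5.15 on day 3. Days 0 and 1 overlapped, and every day 3 library lay above every library of days 0 and 1. Plk1 (ENSMUSG00000030867, chromosome 7, 122159439 to 122169873 of GRCm38), the kinase that drives spindle assembly, was counted at 0.367, 0.25 and 0.678 CPM on day 1 and at 55.5, 49.9 and 33.6 CPM on day 3, a log2 difference of 6.67 (SE 0.64, adjusted p = 2.75e-06). Ccnb1, the cyclin that activates Cdk1 at entry into mitosis, was counted at 2.35, 1.08 and 2.51 CPM on day 1 and at 113, 84.4 and 74 CPM on day 3, a log2 difference of 5.5 (SE 0.47, adjusted p = 1.51e-06). Top2a, which untangles replicated DNA, was counted at 2.49, 2.09 and 4.75 CPM on day 1 and at 125, 108 and 84 CPM on day 3, a log2 difference of 5.13 (SE 0.40, adjusted p = 9.45e-07). All 3 were below 5 CPM in each day 1 library and had no overlap between days. Mki67, the proliferation marker, differed by 4.7, Cdk1 by 4.37, and Foxm1, a transcription factor for genes of G2 and mitosis, by 3.73 on the log2 scale. Kif4, a chromosome motor, had 3 reads over the day 1 libraries and 1361 over the day 3 libraries, a ratio of 379 (95% counting interval 129 to 1840). The smallest difference of the list was that of Kif23 (2.51).

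Promoters of mitotic genes are known to carry the CCAAT box, bound by NF-Y, and some the element TTTGAA (CHR). The 250 bases before the start of 25 of the 30 mitotic genes were found in RefSeq (GRCm38.p6) and searched on both strands. CCAAT occurred in 19 of these promoters (76.0%) against 34.5% of 27025 promoters, and TTTGAA in 28.0% against 16.3%. TTCCCGC or TTGGCGC, forms of the E2F site, occurred in 40% of the 25 promoters found for the replication list and in 5.71% of all promoters. CCAAT was frequent in the replication list too, with 17 of the 25 promoters (68.0%). These are matches of letters and not sites shown to be bound. The promoters of the 4 genes of the mitosis list with the largest rises are printed 5′ to 3′ to show where the box lies, with CCAAT in capitals. None of the 4 holds TTTGAA on either strand, and variants of this element were not searched for.
Plk1 promoter, chr7:122159185-122159434, plus strand: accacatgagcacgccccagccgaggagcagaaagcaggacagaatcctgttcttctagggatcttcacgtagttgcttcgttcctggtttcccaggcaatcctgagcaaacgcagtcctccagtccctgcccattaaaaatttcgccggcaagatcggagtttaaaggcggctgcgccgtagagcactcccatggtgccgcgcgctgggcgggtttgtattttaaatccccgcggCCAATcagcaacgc
Ttk promoter, chr9:83834439-83834688, plus strand: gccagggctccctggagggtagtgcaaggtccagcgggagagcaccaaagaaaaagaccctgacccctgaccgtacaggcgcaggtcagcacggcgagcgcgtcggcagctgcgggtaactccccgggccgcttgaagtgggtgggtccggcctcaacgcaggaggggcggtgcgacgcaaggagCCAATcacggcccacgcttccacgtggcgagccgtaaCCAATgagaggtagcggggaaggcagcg
Ccnb1 promoter, chr13:100786487-100786736, minus strand: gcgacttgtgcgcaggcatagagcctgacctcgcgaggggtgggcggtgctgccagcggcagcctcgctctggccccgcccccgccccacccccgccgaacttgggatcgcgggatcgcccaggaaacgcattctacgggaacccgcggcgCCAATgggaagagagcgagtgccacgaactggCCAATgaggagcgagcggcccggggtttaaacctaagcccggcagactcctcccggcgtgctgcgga
Cenpe promoter, chr3:135212313-135212562, plus strand: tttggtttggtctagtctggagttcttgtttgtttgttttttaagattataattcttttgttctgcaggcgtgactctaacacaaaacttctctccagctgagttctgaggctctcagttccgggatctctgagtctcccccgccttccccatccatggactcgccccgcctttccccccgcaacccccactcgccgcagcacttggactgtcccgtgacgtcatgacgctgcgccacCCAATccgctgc

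The box begins 14 bases before the RefSeq start in Plk1, 65 and 28 bases before it in Ttk, 99 and 67 in Ccnb1, and 12 in Cenpe. GENCODE M21 places the start further upstream in 2 of these genes, at 135212537 in Cenpe and at 100786570 in Ccnb1. By those starts the Cenpe box and the Ccnb1 box at 67 bases lie inside the gene. Ttk, the spindle checkpoint kinase, was counted at 0, 0.167 and 0.542 CPM on day 1 and at 15.4, 15.3 and 12.2 CPM on day 3. Cenpe, the kinetochore motor, was counted at 1.69, 0.668 and 0.339 CPM on day 1 and at 46.4, 36.3 and 26.1 CPM on day 3. The day 3 values of both lay above all day 1 values.

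Genes of DNA replication and S phase rose in part, with 19 of 30 higher and none lower, and a median of 1.26. Unlike in the mitotic list, 10 of the 19 continued a rise from day 0 to day 1. Rrm2, the small subunit of ribonucleotide reductase, was counted at 3.3, 5.63 and 3.1 CPM on day 0, at 5.79, 4.26 and 5.83 CPM on day 1 and at 184, 132 and 104 CPM on day 3, with a log2 difference of 4.72 (SE 0.41, adjusted p = 1.82e-06) between days 1 and 3. Ccne1, cyclin E1, was counted at 0.508, 0.108 and 0.443 CPM on day 0, at 5.79, 3.42 and 4.75 CPM on day 1 and at 31.3, 25.1 and 24.9 CPM on day 3, with a difference of 2.57 (SE 0.37, adjusted p = 1.05e-04). Both rose in each isolation without overlap between days 1 and 3. Cdc6, which loads the replicative helicase, differed by 2.79 (SE 0.47, adjusted p = 4.05e-04), and Mcm2 to Mcm7, subunits of that helicase, were all called higher by 0.73 to 1.62. Of these, Mcm7 was not called without isolation 1 (adjusted p = 0.121) or isolation 2 (0.0803). Pcna, the sliding clamp, had 108 ± 13.2 CPM on day 1 and 97 ± 4.71 CPM on day 3 (SD, n = 3) and was not called (log2 difference −0.16, SE 0.17, adjusted p = 0.51). The list of cyclin D genes, cyclin-dependent kinases such as Cdk6 and inhibitors of these kinases had 6 of 11 tested higher and 2 lower. Whichever isolation was left out, 3 were higher, and 1 was lower without isolation 1 or isolation 3. The higher members include the inhibitor Cdkn2c, and the lower members are the inhibitors Cdkn1a and Cdkn1c. Cdkn1a (p21), a p53 target that holds the cell cycle, was counted at 52.2, 60.7 and 41.4 CPM on day 0, at 1408, 1005 and 1877 CPM on day 1 and at 457, 485 and 427 CPM on day 3, and its log2 difference was −1.64 (SE 0.26, adjusted p = 2.44e-04). It was high on day 1 in each isolation, and the days did not overlap. Ccnd3, cyclin D3, was higher by 1.02 (SE 0.14, adjusted p = 5.34e-05), whereas Ccnd1, cyclin D1, had 235 ± 26.5 CPM on day 1 and 241 ± 51.5 CPM on day 3 and was not called. Cdkn2a had too few counts to be tested.

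A small set of genes appeared on day 3 from below 1 CPM in each library of days 0 and 1 to at least 5 CPM in each library of day 3. There were 6 of them, Cck, Pkp1, Ttk, Pimreg, Ctla2a and Ska1, and all 6 were called. Ttk, Pimreg and Ska1 act in mitosis. Cck (ENSMUSG00000032532, chromosome 9, 121489824 to 121495694), the gene of the peptide cholecystokinin, was counted at 0.147, 0.835 and 0 CPM on day 1 and at 38.8, 27.3 and 27.7 CPM on day 3, and at 110.0, 51.5 and 118 CPM on day 7. Pkp1, a desmosomal plakophilin best known from stratified epithelia, was counted at 0.147, 0.167 and 0.136 CPM on day 1 and at 19.4, 37.7 and 11.8 CPM on day 3, and its log2 difference was 7.16 (SE 0.67, adjusted p = 5.58e-06). Neither gene had a count in any WT library of day 0, and both were present in each isolation on day 3. Ctla2a, a protease inhibitor homologous to the cathepsin propeptide, was counted at 0.367, 0.417 and 0.136 CPM on day 1 and at 9.76, 7.32 and 9.29 CPM on day 3, but reads of its near copy Ctla2b may have been split with it. Among other genes with the largest rises, Ncam1, the neural cell adhesion molecule, was counted at 1.03, 0.835 and 2.37 CPM on day 1 and at 84.5, 60.2 and 55.3 CPM on day 3, a difference of 5.53 (SE 0.41, adjusted p = 9.04e-07). Loxl3, a lysyl oxidase that cross-links matrix, was counted at 0.44, 0.501 and 1.63 CPM on day 1 and at 41.9, 25.4 and 39.6 CPM on day 3. Prl2c2, proliferin, was counted at 1.54, 0.25 and 1.08 CPM on day 1 and at 69.3, 14.3 and 49.9 CPM on day 3. All 3 rose in each isolation, and Prl2c2 was lowest in isolation 2 on both days. The proliferins are near-identical copies among which the counting could split reads, so their single values are uncertain. Depdc1a, a mitotic gene, was counted at 0.367, 0 and 0 CPM on day 1 and at 18.5, 16.3 and 15.2 CPM on day 3.

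The fall of AEC2 genes went on from day 1. All 10 AEC2 markers of the study's list were lower, with a median log2 difference of −5.39, against 12.1% of all genes, and 9 of the 10 continued a fall. The study may have chosen its marker lists on these samples, so that their counts are not independent evidence of direction. Sftpc (ENSMUSG00000022097, chromosome 14, 70520949 to 70524081), surfactant protein C, was counted at 65943, 12157 and 53466 CPM on day 1 and at 287, 119 and 429.9 CPM on day 3, a difference of −7.27 (SE 0.58, adjusted p = 9.45e-07). Sftpa1, surfactant protein A, was counted at 16218, 2192 and 11191 CPM on day 1 and at 27.5, 5.83 and 38.5 CPM on day 3, a difference of −8.63 (SE 0.77, adjusted p = 1.88e-06). Lamp3, a lamellar body membrane protein, was counted at 1141, 67.8 and 599 CPM on day 1 and at 7.86, 3.88 and 6.8 CPM on day 3, a difference of −6.29 (SE 0.80, adjusted p = 3.77e-05). In each of the 3 genes isolation 2 was lowest on day 1, and the days did not overlap. Of 16 genes tested for surfactant and lamellar bodies, 12 were lower and none higher. Slc34a2, the phosphate transporter of AEC2s, was counted at 15501, 15158 and 14293 CPM on day 0, at 66.5, 3.09 and 15.4 CPM on day 1 and at 1.83, 1.62 and 1.59 CPM on day 3. Most of its fall lay before day 1, and the step to day 3 was not called without isolation 1 (adjusted p = 0.0542) or isolation 3 (0.085). Abca3, the lipid pump of lamellar bodies, was counted at 577, 65 and 327 CPM on day 1 and at 86, 139 and 104 CPM on day 3 and was not called (log2 difference −1.42, SE 0.57, adjusted p = 0.0762). Abca3 fell in isolations 1 and 3 and rose in isolation 2, and without isolation 2 it was called (adjusted p = 0.00121). Lyz2 was lower, with a log2 difference of −4.03 (SE 1.17, adjusted p = 0.0175), and was not called without isolation 1 (adjusted p = 0.0654) or isolation 2 (0.104). Macrophages also express Lyz2, and its near copy Lyz1 may have taken part of its reads.

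**Figure D2:**
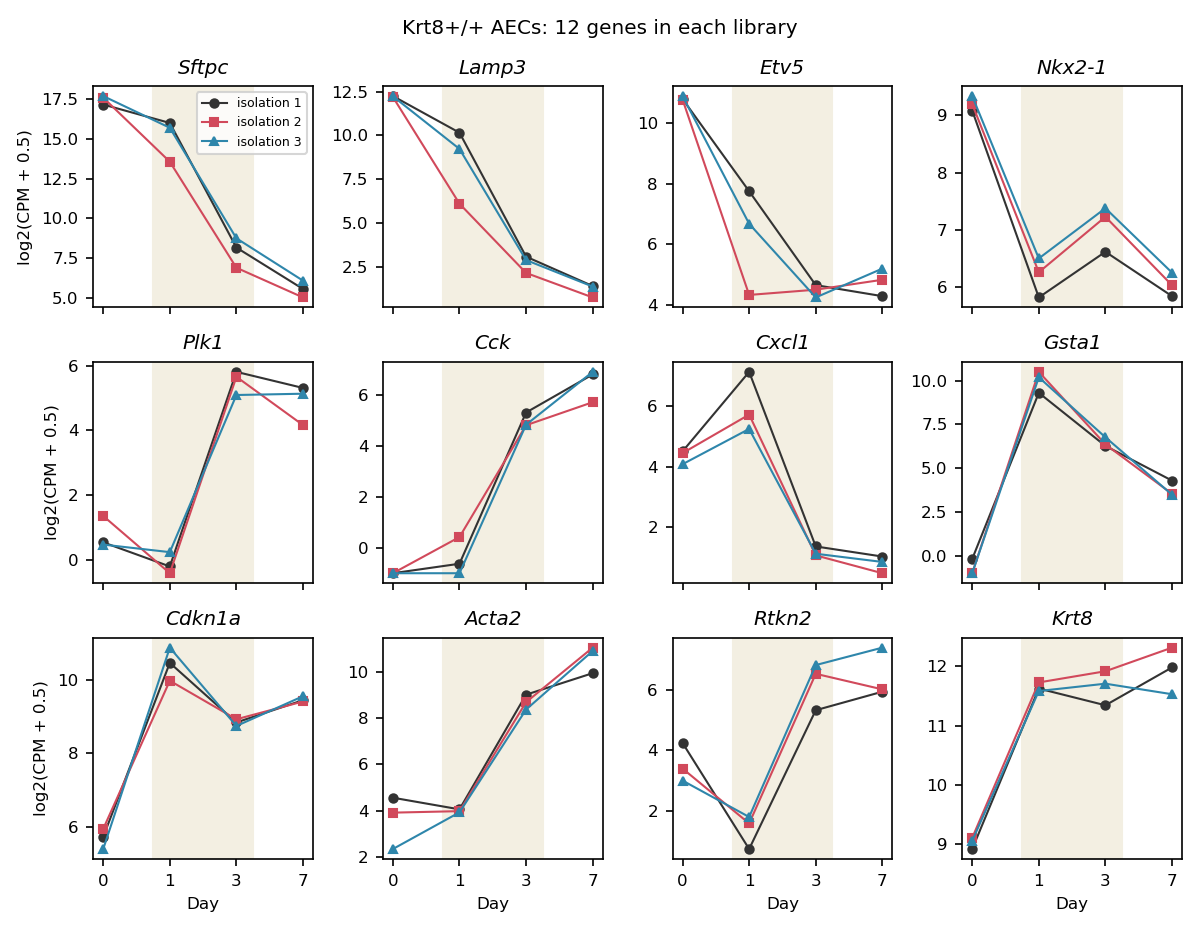
The log2(CPM + 0.5) of 12 genes is plotted for each WT library over days 0, 1, 3 and 7, with 1 line for each isolation and days 1 and 3 shaded. Sftpc and Lamp3 fell through day 3, Plk1 and Cck rose between days 1 and 3, Cxcl1, Gsta1 and Cdkn1a rose to day 1 and fell by day 3, and Krt8 was not called, with a log2 difference of 0.01 between days 1 and 3.

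Transcription factors of AEC2s divided. Of 14 tested, 8 were lower and 4 higher. Cebpa, which supports surfactant lipid genes, was counted at 22.6, 15.9 and 21.1 CPM on day 1 and at 5.11, 4.73 and 4.82 CPM on day 3, a difference of −2.01 (SE 0.38, adjusted p = 0.00113). Etv5, which maintains AEC2s downstream of Ras signalling, was counted at 214, 19.5 and 102 CPM on day 1 and at 24.6, 22.1 and 18.4 CPM on day 3, a difference of −2.18 (SE 0.61, adjusted p = 0.0146). Isolation 2 was as low on day 1 as on day 3 in Etv5, and the gene was not called without isolation 1 (adjusted p = 0.143) or isolation 3 (0.163). Nkx2-1 (ENSMUSG00000001496, chromosome 12, 56531958 to 56536908), the master regulator of lung epithelium, went the other way and was counted at 541, 585 and 645 CPM on day 0, at 56.2, 76.4 and 90.4 CPM on day 1 and at 98, 149.7 and 166 CPM on day 3, a difference of 0.89 (SE 0.14, adjusted p = 3.00e-04) from day 1 to day 3. It recovered only part of its fall from day 0. Gata6 (log2 difference 0.77, SE 0.18, adjusted p = 0.00485) and Foxa2 (log2 difference 0.76, SE 0.19, adjusted p = 0.00811), factors of lung endoderm, also reversed a fall. Gata6 was not called without isolation 2 (adjusted p = 0.111), and Foxa2 was not called without isolation 2 (0.08) or isolation 3 (0.0842). Without isolation 2, 1 of the 14 factors was higher, and without isolation 3, 2 were higher. The lower factors numbered 3 without isolation 1 and 4 without isolation 3.

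Genes of host defence and antigen presentation that fresh AEC2s express fell with the surfactant genes. In the host defence list 16 of 20 were lower and 1, Tlr3, was higher (none higher without isolation 1 or isolation 3), and 6 of 8 MHC class II genes were lower, with a median of −2.43. Cd74, the invariant chain, was counted at 2202, 505 and 2111 CPM on day 1 and at 86.4, 114 and 168 CPM on day 3, a difference of −3.65 (SE 0.49, adjusted p = 6.14e-05). Lcn2, lipocalin 2, which starves bacteria of iron, was counted at 79.9, 30.7 and 61.3 CPM on day 1 and at 0.197, 0.13 and 0.51 CPM on day 3, a difference of −7.55 (SE 0.85, adjusted p = 1.25e-05). Chia1, acidic chitinase, was counted at 1580.3, 277 and 1284 CPM on day 1 and at 13.2, 5.89 and 22.7 CPM on day 3. Each fell in 3 of 3 isolations with no overlap between days. In the MHC class I list 3 of 12 were lower (none without isolation 1 and 1 without isolation 3), and B2m, the common light chain, was not called (log2 difference −0.16, SE 0.13, adjusted p = 0.349). There were 10 genes with at least 5 CPM in each day 1 library and under 1 CPM in each day 3 library, and all 10 were called. They were Lcn2, Itih4, Sfta2, Pla2g1b, Cxcl2, Pon1, Scgb3a2, Apoc1, Bpifb1 and Scgb1c1. Itih4, a plasma protease inhibitor chain, was counted at 85.4, 7.51 and 29.8 CPM on day 1 and at 0, 0.324 and 0.057 CPM on day 3, and Pon1, paraoxonase 1, at 36.9, 8.18 and 24.8 CPM on day 1 and at 0.066, 0 and 0.283 CPM on day 3. Scgb3a2, Scgb1c1 and Bpifb1 are secreted products best known from airway cells. Airway markers moved in the same direction as the AEC2 genes, with 10 of 12 ciliated and club cell markers lower (5 without isolation 1). The summed level of these markers was 5709 to 16770.0 CPM on day 1 and 1052 to 1944 CPM on day 3. Muc5b was at 0 in 1 day 1 library and 2 day 3 libraries, and Scgb3a2 in 1 day 3 library. The part of airway cells in the result was not tested. Scgb1a1, which marks club cells, was counted at 4511, 15568 and 7585 CPM on day 1 and at 373, 1219.8 and 969 CPM on day 3, and Foxj1, which marks ciliated cells, at 89.8, 58.9 and 29.5 CPM on day 1 and at 32, 21.6 and 14.7 CPM on day 3. Scgb1a1 did not overlap between the days, while Foxj1 overlapped and was not called without isolation 1 (adjusted p = 0.129) or isolation 3 (0.0557).

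AEC1 genes rose in part, while 8 of 9 transitional markers were not called. Of the study's 10 AEC1 markers 5 were higher and none lower, and of 18 further AEC1 genes 11 were higher and none lower, with a median of 1.08. Rtkn2, rhotekin 2, an AEC1 gene, was counted at 18.5, 10.1 and 7.52 CPM on day 0, at 1.17, 2.5 and 2.98 CPM on day 1 and at 39.7, 92.1 and 113 CPM on day 3, a difference of 5.17 (SE 0.58, adjusted p = 1.22e-05) between days 1 and 3. Hopx, an AEC1 transcription cofactor, was counted at 47.7, 81.4 and 54.8 CPM on day 1 and at 112, 158 and 181 CPM on day 3, a difference of 1.3 (SE 0.20, adjusted p = 2.36e-04). Akap5, a kinase anchor, was counted at 12.3, 35.8 and 55.9 CPM on day 1 and at 159, 266 and 281 CPM on day 3. The days did not overlap in these genes, and Rtkn2 fell to day 1 in each isolation before it rose. Cldn18, the alveolar claudin, and Emp2 also reversed a fall, by 1.51 and 1.47 on the log2 scale. Ager, the receptor often used to define AEC1s, was counted at 512, 173 and 518 CPM on day 1 and at 379, 678 and 976 CPM on day 3 and was not called (log2 difference 0.74, SE 0.41, adjusted p = 0.192). Its level fell in isolation 1 and rose in isolations 2 and 3, and without isolation 1 it was called (adjusted p = 0.0447). Pdpn (0.06), Aqp5 (0.18) and Igfbp2 (0.59) were not called either, and Cav1, caveolin 1, was higher by 0.96 (SE 0.33, adjusted p = 0.0421) but was not called without isolation 2 (adjusted p = 0.168) or isolation 3 (0.197).

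Of 9 transitional markers, Itgb6 alone was called. Their median log2 difference was 0.16, and 6 of the 9 lay above 0. The mean of log2(CPM + 0.5) over the 9 was 9.36, 9.70 and 9.45 on day 1 and 9.46, 10.02 and 9.79 on day 3. Itgb6, a chain of the integrin that activates TGF-β, was counted at 130.4, 159 and 138 CPM on day 1 and at 381, 646 and 479.6 CPM on day 3, a difference of 1.8 (SE 0.18, adjusted p = 4.15e-06). Krt8 had 3204 ± 167 CPM on day 1 and 3267 ± 637 CPM on day 3, Krt19 1881 ± 168 CPM on day 1 and 1691 ± 380.2 CPM on day 3, and Cldn4 247 ± 121 CPM on day 1 and 195 ± 54.1 CPM on day 3 (SD, n = 3). Their log2 differences were 0.01 (SE 0.20, adjusted p = 0.966), −0.17 (SE 0.18, adjusted p = 0.505) and −0.25 (SE 0.43, adjusted p = 0.705). Among 16 keratins tested 6 were lower and none higher (2 without isolation 1 or isolation 3, and 3 without isolation 2). Krt80 was counted at 207, 141 and 219 CPM on day 1 and at 73.3, 128 and 109 CPM on day 3, a difference of −0.9 (SE 0.23, adjusted p = 0.00809), and was not called without isolation 1 (adjusted p = 0.197) or isolation 3 (0.0643). Krt15, a basal cell keratin, had 266 reads over the day 1 libraries and 2 over the day 3 libraries, a ratio of 159 (95% counting interval 43.7 to 1320). Isolation 2 had few of the day 1 reads of Krt15, and the gene was not called without isolation 1 (adjusted p = 0.0745) or isolation 3 (0.0634). Of 13 basaloid markers tested, 7 were higher and 2 lower, and without isolation 2, 4 were higher and 1 lower. None was lower without isolation 1. Lamb3, a laminin-332 chain, was counted at 300.1, 203 and 322 CPM on day 1 and at 479, 730.4 and 727 CPM on day 3, a difference of 1.23 (SE 0.19, adjusted p = 2.50e-04). Cdh3, P-cadherin, was counted at 0.587, 0.334 and 0 CPM on day 1 and at 5.11, 6.93 and 2.95 CPM on day 3, a difference of 4.04 (SE 0.59, adjusted p = 1.32e-04). Krt17 was counted at 11.2, 13.4 and 2.03 CPM on day 1 and at 11.4, 22.9 and 11.3 CPM on day 3 and was not called (log2 difference 1.0, SE 0.45, adjusted p = 0.109).

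In the list of NRF2 targets and antioxidant genes, 22 of 28 were lower and 1, G6pdx, was higher (none higher without isolation 2 or isolation 3), with a median of −1.09, and 16 of the 22 reversed a rise. The mean of log2(CPM + 0.5) over the list was 7.10, 7.26 and 7.17 on day 0, 9.02, 8.92 and 9.03 on day 1 and 7.92, 7.85 and 7.91 on day 3. Each day 3 library lay between the levels of days 0 and 1. Gsta1 (ENSMUSG00000074183, chromosome 9, 78230656 to 78242684), a glutathione transferase, was counted at 0.381, 0 and 0 CPM on day 0, at 634, 1455 and 1174 CPM on day 1 and at 76.9, 81.9 and 109 CPM on day 3, a difference of −3.6 (SE 0.41, adjusted p = 1.29e-05) from day 1 to day 3. Slc7a11, the cystine importer, was counted at 2.35, 3.68 and 3.76 CPM on day 0, at 308, 240.1 and 435 CPM on day 1 and at 39.5, 44.5 and 41.7 CPM on day 3, a difference of −2.94 (SE 0.20, adjusted p = 3.41e-07). Srxn1, sulfiredoxin, was counted at 741, 655 and 858 CPM on day 1 and at 219, 199 and 264 CPM on day 3, a difference of −1.73 (SE 0.14, adjusted p = 9.45e-07). The days did not overlap in these 3 genes. Gsta1 has close copies among which reads may be split. Gclc and Gclm, the subunits of the enzyme that starts glutathione synthesis, were lower, with log2 differences of −2.38 and −1.78. Hmox1, heme oxygenase, and Txnrd1, thioredoxin reductase, were lower too (−0.97 and −1.25). Hmox1 was not called without isolation 1 (adjusted p = 0.116) or isolation 3 (0.102). Nqo1, also a target of NRF2, was counted at 131, 172 and 102 CPM on day 1 and at 143, 112 and 133 CPM on day 3 and was not called (log2 difference −0.07, SE 0.40, adjusted p = 0.916).

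Among 25 p53 targets 10 were lower and 1, Psrc1, was higher (none higher without isolation 1 or isolation 2), and all 10 reversed a rise. The mean of log2(CPM + 0.5) over the list was 4.07, 4.09 and 3.90 on day 0, 6.16, 6.04 and 6.45 on day 1 and 5.66, 5.74 and 5.67 on day 3. Every day 3 library lay below every day 1 library and above day 0. On day 7 the mean was 6.33, 6.41 and 6.36, above every day 3 library. Gdf15, a stress cytokine, was counted at 5.27, 3.14 and 4.87 CPM on day 0, at 80.2, 65.8 and 151 CPM on day 1 and at 14, 11.5 and 14.7 CPM on day 3, a difference of −2.83 (SE 0.26, adjusted p = 2.40e-06). Sesn2, a sestrin, was counted at 42.6, 49.4 and 49.2 CPM on day 0, at 328, 114 and 365 CPM on day 1 and at 43.4, 59.3 and 60.0 CPM on day 3, a difference of −2.27 (SE 0.40, adjusted p = 5.41e-04). Mdm2, the ligase that degrades p53, was counted at 88.5, 81.9 and 74 CPM on day 0, at 471, 290.2 and 489.9 CPM on day 1 and at 239, 193 and 186 CPM on day 3, a difference of −1.0 (SE 0.21, adjusted p = 0.00224). In each gene the day 3 values lay below all day 1 values, but for Gdf15 and Mdm2 they remained above those of day 0. Without isolation 3, 5 of the 25 were lower. Zmat3 (−0.12) and Ccng1 (−0.4) were not called, nor was Trp53 itself (log2 difference 0.26, SE 0.13, adjusted p = 0.156).

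In the list of the unfolded protein and integrated stress responses, members went both ways, 11 lower and 8 higher of 30. The lower members include the transcription factors of the integrated stress response, Atf4, Atf5 and Ddit3 (CHOP), of which Atf5 and Ddit3 were not called without isolation 1 (adjusted p = 0.144 and 0.21) or isolation 2 (0.276 and 0.329). Atf4 was counted at 114, 125 and 127 CPM on day 0, at 477, 366 and 654 CPM on day 1 and at 145, 152 and 180.2 CPM on day 3, a difference of −1.64 (SE 0.22, adjusted p = 5.33e-05). Ppp1r15a, the phosphatase subunit that ends the response, was counted at 108, 41.9 and 54.5 CPM on day 0, at 1663, 227 and 1209 CPM on day 1 and at 68.3, 42.6 and 77.2 CPM on day 3, a difference of −3.83 (SE 0.58, adjusted p = 1.58e-04). Asns, asparagine synthetase, was lower, with a log2 difference of −1.11 (SE 0.23, adjusted p = 0.00223) but was not called without isolation 1 (adjusted p = 0.0566). The higher members include chaperones and folding enzymes of the endoplasmic reticulum. Calr, calreticulin, was counted at 597, 653 and 526 CPM on day 1 and at 1178, 1073 and 969 CPM on day 3, a difference of 0.86 (SE 0.12, adjusted p = 9.66e-05), and Pdia4, Pdia6 and Pdia3, disulfide isomerases, were higher by 0.78, 0.64 and 0.54. Pdia3 was not called without isolation 1 (adjusted p = 0.0664). Hspa5 (BiP) was counted at 2718, 1402 and 1995 CPM on day 1 and at 1783, 1546 and 1449 CPM on day 3 and was not called (log2 difference −0.32, SE 0.25, adjusted p = 0.359), although it was without isolation 2 (adjusted p = 0.047). The higher members numbered 5 whichever isolation was left out, and 5 were lower without isolation 1. Of 20 heat shock chaperones 5 were lower and 1 was higher (1 lower without isolation 1, none higher whichever isolation was left out). Hspa1b, inducible HSP70, was counted at 532, 113 and 415 CPM on day 1 and at 31.7, 24.2 and 29.1 CPM on day 3, but was not called without isolation 1 (adjusted p = 0.0602), and it shares reads with its near copy Hspa1a. Nucleolar genes of ribosome biogenesis had 9 of 30 lower, all reversing a rise (3 whichever isolation was left out). Nop58, a core protein of box C/D particles, was counted at 39.3, 41.3 and 30.6 CPM on day 0, at 271, 265 and 270.3 CPM on day 1 and at 168, 148 and 136 CPM on day 3, a difference of −0.84 (SE 0.13, adjusted p = 2.50e-04). Myc, which activates such genes, was counted at 11, 9.74 and 8.52 CPM on day 0, at 360.1, 219 and 222 CPM on day 1 and at 154, 166 and 130.5 CPM on day 3, a difference of −0.8 (SE 0.14, adjusted p = 4.29e-04).

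Immediate early and AP-1 genes had 15 of 28 lower and none higher, of which 9 reversed a rise. Fosl1 (FRA1) was counted at 0.381, 0 and 0.221 CPM on day 0, at 358, 207 and 406 CPM on day 1 and at 59.6, 53.8 and 47.8 CPM on day 3, a difference of −2.5 (SE 0.36, adjusted p = 1.06e-04). Klf4 was counted at 9.97, 7.25 and 5.09 CPM on day 0, at 78, 16.3 and 56.9 CPM on day 1 and at 5.05, 3.3 and 3.46 CPM on day 3, a difference of −3.54 (SE 0.59, adjusted p = 3.95e-04). Atf3 was counted at 448, 107 and 351 CPM on day 1 and at 55.7, 54 and 56.1 CPM on day 3, a difference of −2.3 (SE 0.46, adjusted p = 0.00172). The day 1 value of isolation 2 was the lowest of the day 1 values for these genes. Atf3 was not called without isolation 1 (adjusted p = 0.052). Egr1 (log2 difference −1.33, SE 0.52, adjusted p = 0.0685) and Fos (log2 difference −0.93, SE 0.48, adjusted p = 0.162) were not called. The list had 5 lower members without isolation 1 and 7 without isolation 3. TGANTCA, the AP-1 site, was found in none of 23 promoters of this list, against 6.87% of all promoters.

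Cxcl1, Cxcl2 and Cxcl5, chemokines that draw neutrophils, fell to under 3 CPM. Of 22 chemokine genes 9 were lower and 2 higher. Cxcl1 was counted at 22.1, 21.2 and 16.4 CPM on day 0, at 138, 51.7 and 37.1 CPM on day 1 and at 2.1, 1.62 and 1.7 CPM on day 3, a difference of −5.22 (SE 0.47, adjusted p = 2.15e-06) from day 1 to day 3. Cxcl5 was counted at 1.14, 1.3 and 0.664 CPM on day 0, at 24.3, 39.4 and 14.3 CPM on day 1 and at 1.77, 1.1 and 0.397 CPM on day 3, a difference of −4.71 (SE 0.75, adjusted p = 2.50e-04). Cxcl2 was counted at 6.92, 3.9 and 1.99 CPM on day 0, at 42.8, 23.3 and 11.1 CPM on day 1 and at 0.983, 0.259 and 0.113 CPM on day 3, a difference of −5.98 (SE 0.63, adjusted p = 7.33e-06). Over days 0, 1 and 3 all 3 were highest on day 1 in each isolation and had no overlap with day 3. Cxcl15, lungkine, which fresh lung epithelium makes, fell throughout and was counted at 4279, 5539 and 5694 CPM on day 0, at 1502, 157 and 1075 CPM on day 1 and at 4.13, 3.37 and 6.63 CPM on day 3. Ccl2, which draws monocytes, was counted at 78.7, 73.7 and 53.6 CPM on day 1 and at 35.6, 24.1 and 69.7 CPM on day 3 and was not called (log2 difference −0.84, SE 0.49, adjusted p = 0.216), although it was without isolation 3 (adjusted p = 0.0296). Il1b was counted at 10.3, 9.77 and 0 CPM on day 1 and at 1.51, 0 and 0 CPM on day 3, and was not called without isolation 2 (adjusted p = 0.132). Cd68, a macrophage marker, differed between isolations in the same order as Il1b. It was counted at 79.5, 48.6 and 10.8 CPM on day 1 and at 51.4, 19.2 and 7.48 CPM on day 3. Of 19 macrophage markers 2, Ptprc and Lyz2, were called lower (10.5%, against 12.1% of all genes) and none higher (none lower without isolation 1 or isolation 2). The fitted difference was below 0 for all 19, with a median of −0.88, and the mean log2 level of the list fell in each isolation. The summed level of the list was 4759 to 20170.0 CPM on day 1 and 496 to 2610.0 CPM on day 3, and it includes Lyz2, which AEC2s express. C1qa was at 0 in 1 day 1 library, and Itgam, C1qb and C1qc were each at 0 in 1 day 3 library. The part of macrophages in the fall of chemokines was not tested. Ccl20 and Cx3cl1 were higher by 2.31 and 0.88, and neither was called without isolation 1 (adjusted p = 0.115 and 0.161) or isolation 2 (0.0575 and 0.161).

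**Figure D3:**
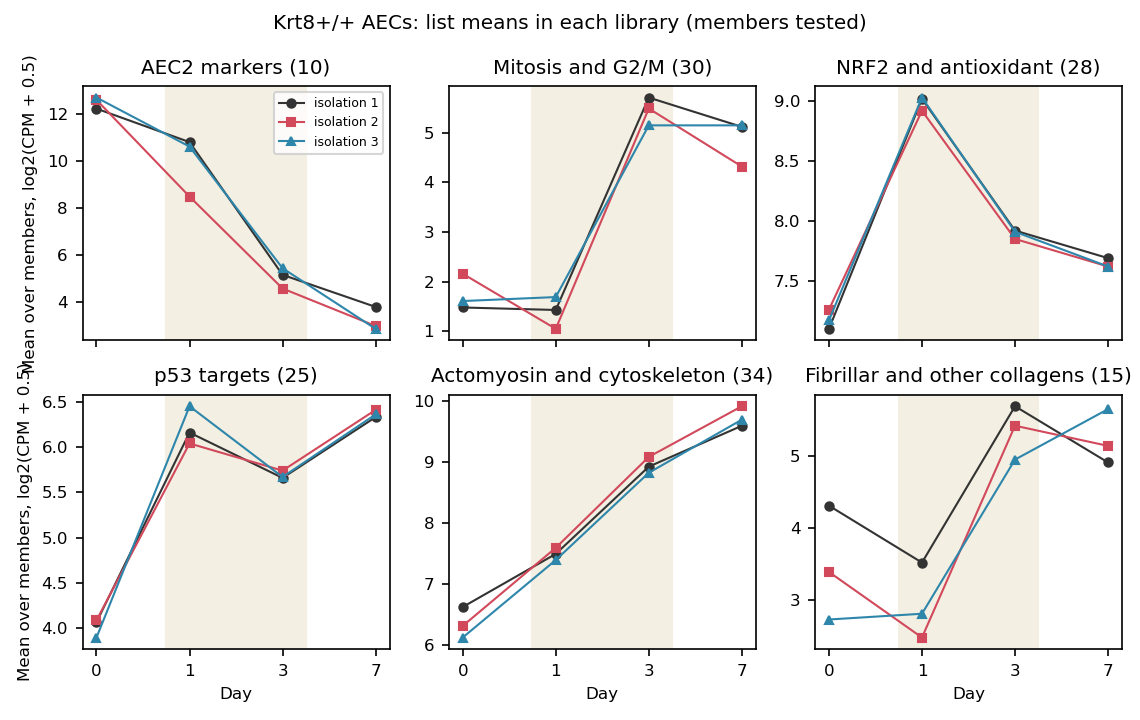
The mean of log2(CPM + 0.5) over the tested members of 6 lists is plotted for each WT library over days 0, 1, 3 and 7, with 1 line for each isolation and days 1 and 3 shaded. Mitotic genes rose between days 1 and 3, NRF2 targets and p53 targets fell from their day 1 level in 3 of 3 isolations, and actomyosin genes and collagens rose.

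Genes of lipid synthesis, which AEC2s use for surfactant, fell in part, and mainly in isolations 1 and 3. Of 24 genes of sterol synthesis 14 were lower and none higher, with a median of −0.81, and of 22 genes for fatty acids and phospholipids 9 were lower and none higher. Fdft1, squalene synthase, was counted at 249, 137 and 367 CPM on day 1 and at 50.9, 54.8 and 59.3 CPM on day 3, a difference of −2.15 (SE 0.28, adjusted p = 5.17e-05). Acss2, which makes acetyl-CoA from acetate, was counted at 42, 22.1 and 34 CPM on day 1 and at 4.78, 5.5 and 5.95 CPM on day 3, a difference of −2.56 (SE 0.26, adjusted p = 5.57e-06). The days did not overlap in these genes, and isolation 2 was lowest on day 1 in each. The mean log2 level of the sterol list was 6.19, 5.4 and 6.14 on day 1 and 5.18, 5.29 and 5.11 on day 3. That of the fatty acid list was 6.85, 5.68 and 6.53 on day 1 and 5.8, 5.8 and 5.66 on day 3. In isolation 2 the sterol mean thus fell little, and the fatty acid mean did not fall. The sterol list had 6 lower members without isolation 1 and 8 without isolation 3, and the fatty acid list had 4 and 3, with 1 higher member without isolation 1. CCAAT occurred in 15 of 17 promoters found for the sterol list (88.2%, against 34.5% of all). The sterol regulatory element was found in 1 of the 17 (5.88%, against 0.592% of all). Scd1, the desaturase, was lower, with a log2 difference of −3.21 and was not called without isolation 1 (adjusted p = 0.0609) or isolation 3 (0.095). Srebf1 (−0.19) and Srebf2 (−0.25), the factors that drive such genes, were not called, although Srebf2 was without isolation 2 (adjusted p = 0.0253).

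Glycolytic genes rose in part, with 8 of 27 higher and 2 lower in the list of glycolysis and hypoxia. Eno1, enolase, was counted at 828, 912 and 748 CPM on day 1 and at 1975, 1821 and 1548 CPM on day 3, a difference of 1.1 (SE 0.14, adjusted p = 3.04e-05). Slc16a3, the lactate exporter, was counted at 14.7, 11.3 and 2.51 CPM on day 1 and at 86.4, 51.4 and 42.6 CPM on day 3, a difference of 2.8 (SE 0.59, adjusted p = 0.00233). Ndrg1, a hypoxia and stress gene, went down and was counted at 12.2, 14.4 and 8.63 CPM on day 0, at 251, 171 and 324 CPM on day 1 and at 38.5, 51.7 and 50.7 CPM on day 3, a difference of −2.39 (SE 0.33, adjusted p = 7.20e-05). All 3 moved in each isolation without overlap. Without isolation 1 or isolation 3, 1 member was lower. Of 23 genes of fatty acid oxidation and peroxisomes 5 were higher and 3 lower, and of 30 respiratory chain subunits 3 were higher and none lower (1 without isolation 2 or isolation 3). Acads, short-chain acyl-CoA dehydrogenase, was counted at 12.9, 19.9 and 14.6 CPM on day 1 and at 26.5, 36.7 and 35.7 CPM on day 3, a difference of 1.07 (SE 0.19, adjusted p = 6.56e-04). Acoxl, with the largest fall of the oxidation list, was counted at 90.5, 1.17 and 20.7 CPM on day 1. On day 3 it was counted at 0.131, 0.389 and 0.283 CPM, a difference of −6.54 (SE 1.38, adjusted p = 0.00309). Without isolation 3 Acoxl was not called (adjusted p = 0.0676). Of 30 cytosolic ribosomal proteins 5 were lower (16.7%, against 12.1% of all genes). None was lower without isolation 2 or isolation 3, and 16 were lower without isolation 1. Isolation 2 had the highest share of ribosomal protein reads on day 1, as given above.

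After mitosis, the list with the highest share of higher members was that of actomyosin and cytoskeletal genes, with 33 of 34 higher, none lower, and a median of 1.16. The mean of log2(CPM + 0.5) over the list was 7.49, 7.59 and 7.39 on day 1 and 8.92, 9.08 and 8.82 on day 3. Acta2 (ENSMUSG00000035783, chromosome 19, 34241090 to 34255590), smooth muscle actin, was counted at 16.1, 15.2 and 14.6 CPM on day 1 and at 517, 412 and 331 CPM on day 3, a difference of 4.75 (SE 0.48, adjusted p = 4.53e-06). Tagln, transgelin, was counted at 21.9, 21.5 and 17 CPM on day 1 and at 491, 304 and 301 CPM on day 3, a difference of 4.15 (SE 0.35, adjusted p = 1.47e-06). Zyx, zyxin of focal adhesions, was counted at 134, 138 and 123 CPM on day 1 and at 605, 514 and 401 CPM on day 3, a difference of 1.92 (SE 0.19, adjusted p = 3.46e-06). Every day 3 value of these genes lay above every day 1 value. Myl9, a myosin light chain, was higher by 2.15, Tpm2, a tropomyosin, by 2.97, Myh9, the non-muscle myosin heavy chain, by 1.05 and Actb by 0.96. Only Pfn1, profilin, was not called (log2 difference 0.31, SE 0.15, adjusted p = 0.13). The CArG box, bound by SRF, occurred in 16.7% of the 30 promoters found, against 1.4% of all.

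Integrins and targets of YAP rose in part. Of 15 integrin genes 10 were higher and 1, Itgb7, was lower (none lower without isolation 1 or isolation 2), and of 23 targets of YAP and TEAD 15 were higher and 2 lower (9 higher without isolation 2, and none lower without isolation 1). Ankrd1 was counted at 0.889, 0 and 0.221 CPM on day 0, at 17.2, 24.6 and 33.1 CPM on day 1 and at 371, 337 and 283 CPM on day 3, a difference of 3.73 (SE 0.34, adjusted p = 2.31e-06). Ccn2 (CTGF) was counted at 20.3, 6.71 and 4.42 CPM on day 0, at 197, 185 and 196 CPM on day 1 and at 1699, 1805 and 1526 CPM on day 3, a difference of 3.11 (SE 0.40, adjusted p = 4.49e-05). Itgb1, the common β1 chain, was counted at 800.1, 622 and 647 CPM on day 1 and at 1709.7, 1745 and 1383 CPM on day 3, a difference of 1.22 (SE 0.16, adjusted p = 6.30e-05). The days did not overlap in these genes. Ccn1 (CYR61) was counted at 1347, 832 and 971 CPM on day 1 and at 1755, 1779.7 and 1554 CPM on day 3 and was not called (log2 difference 0.74, SE 0.33, adjusted p = 0.104). Itgb5 and Itga5 were higher by 1.66 and 2.16, and Itgb4, of hemidesmosomes, was not called (0.57). Gadd45a, also a stress gene, was lower, with a log2 difference of −1.94 and was not called without isolation 1 (adjusted p = 0.12).

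In the list for TGF-β, 15 of 24 were higher and 2 lower (8 higher without isolation 2 and 9 without isolation 3, and 1 lower without isolation 1). Among ligands, Tgfb3 was counted at 12.1, 13.7 and 11.1 CPM on day 1 and at 86.3, 55.8 and 51 CPM on day 3, a difference of 2.36 (SE 0.31, adjusted p = 5.39e-05). Tgfb2 was counted at 14.3, 26.1 and 27.1 CPM on day 1 and at 39.3, 85 and 66.9 CPM on day 3, a difference of 1.48 (SE 0.31, adjusted p = 0.0021). Tgfb1 was counted at 19.1, 11.9 and 9.15 CPM on day 1 and at 39.4, 30.4 and 30.6 CPM on day 3, a difference of 1.35 (SE 0.27, adjusted p = 0.00179). All 3 ligands were higher on day 3 in each isolation. Of the genes for release and reception, Ltbp2, a latent TGF-β binding protein, was higher by 3.36 (SE 0.44, adjusted p = 5.17e-05) and Tgfbr1 by 1.16 (SE 0.23, adjusted p = 0.00168), though without isolation 2 Tgfbr1 was not called (adjusted p = 0.051), whereas Tgfbr2 (0.17), Smad2 (−0.08) and Smad3 (−0.01) were not called. Of the targets, Smad7, the inhibitor, was higher by 0.56 (SE 0.15, adjusted p = 0.0128), but not without isolation 2 (adjusted p = 0.258), and Tgfbi was lower, with a log2 difference of −3.41 (SE 0.45, adjusted p = 5.50e-05).

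Of 15 fibrillar and other collagens 13 were higher and none lower, with a median of 2.38 (8 higher without isolation 2). Col1a1, of type I collagen, was counted at 100.3, 38.9 and 22.5 CPM on day 0, at 31.2, 14.3 and 12.5 CPM on day 1 and at 699, 501 and 374 CPM on day 3, a difference of 4.83 (SE 0.60, adjusted p = 3.45e-05) from day 1 to day 3. Col5a2, of type V collagen, was counted at 28.5, 27.1 and 26.2 CPM on day 1 and at 464, 388 and 289 CPM on day 3, a difference of 3.78 (SE 0.61, adjusted p = 3.07e-04). Col3a1 was counted at 403, 189.6 and 116 CPM on day 0, at 41.4, 8.26 and 10.2 CPM on day 1 and at 236, 198 and 125 CPM on day 3, a difference of 3.43 (SE 0.73, adjusted p = 0.00248). Col1a1 and Col3a1 had fallen by day 1 in each isolation, and Col3a1 was not called without isolation 2 (adjusted p = 0.0525). Col11a1 had no read on day 1 and 96 on day 3, at least 26.7-fold higher against a floor of 3 reads over the group. Fn1, fibronectin, was counted at 236, 118 and 133 CPM on day 1 and at 2265, 5151 and 3309.8 CPM on day 3, a difference of 4.59 (SE 0.61, adjusted p = 5.33e-05). Lox, lysyl oxidase, was counted at 42.6, 25.9 and 24.1 CPM on day 1 and at 551, 679.7 and 672 CPM on day 3, a difference of 4.43 (SE 0.70, adjusted p = 2.47e-04). Both were higher on day 3 in each isolation. Of 20 matricellular genes 12 were higher and 1, Tgfbi, was lower.

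Of 17 markers of fibroblasts and pericytes tested, 9 were higher and 1 lower (none lower without isolation 1), among them the collagens and Acta2 named above, which the lists share. Pdgfrb, the pericyte receptor, was counted at 5.65, 3.17 and 4.0 CPM on day 1 and at 57.1, 44 and 41.3 CPM on day 3, a difference of 3.48 (SE 0.60, adjusted p = 5.15e-04). Pdgfra, the fibroblast receptor, was counted at 85.8, 59.3 and 45.1 CPM on day 1 and at 76.3, 40.3 and 34.1 CPM on day 3, and Dcn, decorin, at 62, 60.9 and 48 CPM on day 1 and at 70.4, 54.6 and 50.8 CPM on day 3. Pdgfra (−0.4) and Dcn (0.03) were not called, and neither were Tcf21 (−0.58) and Lum (0.75). Mfap4, a fibroblast gene, was counted at 58.1, 11.4 and 5.63 CPM on day 1 and at 2.42, 1.88 and 0.51 CPM on day 3 and was lower, with a log2 difference of −3.57, though not called without isolation 1 (adjusted p = 0.0736). Rgs5 had too few counts to be tested. The summed level of the 17 genes was 233.6 to 485.1 CPM on day 1 and 1549 to 2609 CPM on day 3, and Thy1 was at 0 in 1 day 1 library. The part of fibroblasts and pericytes in the rise of matrix and actomyosin genes was not tested.

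Of 26 genes for laminins and basement membranes 16 were higher and none lower (10 higher without isolation 2). Col4a3 and Col4a4, type IV collagen chains of the alveolar basement membrane, reversed a fall. Col4a3 was counted at 24.5, 11.1 and 17.1 CPM on day 0, at 4.4, 4.51 and 5.69 CPM on day 1 and at 64.9, 135 and 132 CPM on day 3, a difference of 4.48 (SE 0.45, adjusted p = 4.60e-06), and Col4a4 differed by 3.32 (SE 0.27, adjusted p = 1.28e-06). Lama3, a chain of laminin-332, was counted at 38.4, 22.9 and 20.1 CPM on day 1 and at 80.9, 157 and 88.8 CPM on day 3, a difference of 2.04 (SE 0.28, adjusted p = 6.71e-05). Col4a3 and Lama3 rose in each isolation. Of 21 metalloproteinases and inhibitors 12 were higher and 2 lower (none lower without isolation 1 and 1 without isolation 2). Mmp14, the membrane collagenase, was counted at 69.5, 59.4 and 47.5 CPM on day 1 and at 413, 329 and 276 CPM on day 3, a difference of 2.53 (SE 0.30, adjusted p = 2.32e-05). Timp1 was counted at 28.5, 103 and 64.1 CPM on day 1 and at 565, 406 and 462 CPM on day 3, a difference of 2.96 (SE 0.51, adjusted p = 5.10e-04). Mmp3, stromelysin 1, was lower, with a log2 difference of −1.93 and was not called without isolation 1 (adjusted p = 0.108) or isolation 2 (0.124). Of 16 plasminogen activators and serpins 6 were higher and 1 lower, and none was lower without isolation 1 or isolation 3. Serpinb9b was counted at 12.2, 12.4 and 16.2 CPM on day 1 and at 90.2, 203 and 262 CPM on day 3, a difference of 3.69 (SE 0.42, adjusted p = 1.39e-05), and has close copies in its cluster.

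Among the other secreted factors, 9 of 34 cytokines and growth factors were higher and 6 lower (3 lower without isolation 1). Inhba, which forms activin A, was counted at 0.254, 0.216 and 0 CPM on day 0, at 165, 158 and 81.3 CPM on day 1 and at 760.0, 565 and 454 CPM on day 3, a difference of 2.16 (SE 0.28, adjusted p = 4.40e-05) from day 1. Csf1, the macrophage growth factor, was counted at 325, 176 and 209 CPM on day 1 and at 1193, 682 and 710.5 CPM on day 3, a difference of 1.87 (SE 0.39, adjusted p = 0.00212). Wnt5a was counted at 3.01, 6.43 and 5.63 CPM on day 1 and at 42.1, 29.8 and 25.8 CPM on day 3, a difference of 2.68 (SE 0.46, adjusted p = 5.25e-04). The days did not overlap in these genes. Il33, the alarmin of AEC2s, was lower, with a log2 difference of −3.49 and was not called without isolation 1 (adjusted p = 0.0818) or isolation 3 (0.0935). In BMP and activin signalling 9 of 25 were higher and 4 lower. Several antagonists rose, with Grem1, gremlin, counted at 0.513, 0.918 and 2.98 CPM on day 1 and at 55.2, 30.7 and 29 CPM on day 3, a difference of 4.73 (SE 0.76, adjusted p = 6.31e-04), and with Nog (1.98), Fst (1.92) and Fstl3 (1.46) higher, while the ligands Bmp4 (log2 difference −1.43, SE 0.26, adjusted p = 7.77e-04) and Bmp3 (log2 difference −2.43, SE 0.35, adjusted p = 1.13e-04) were lower. Chrdl1, an antagonist too, had 51 reads on day 1 and 2 on day 3, a ratio of 30.5 (95% counting interval 8.03 to 259), and was not called without isolation 1 (adjusted p = 0.249) or isolation 2 (0.0716). Among receptors and feedback genes for FGF and EGF 2 of 21 were higher and 4 lower (1 higher without isolation 2, and 1 lower without isolation 1 and none without isolation 3). In the list of insulin-like growth factors and their binding proteins 5 of 10 were higher and 2 lower (3 higher without isolation 2 or isolation 3), with Igfbp7, an IGF binding protein, counted at 207, 137 and 231 CPM on day 1 and at 521, 669 and 792 CPM on day 3, a difference of 1.78 (SE 0.20, adjusted p = 1.46e-05).

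In cell junctions, 9 of 20 genes for desmosomes and adherens junctions were higher and none lower (5 higher and 2 lower without isolation 2). Cdh2, N-cadherin, was counted at 2.93, 1.59 and 1.9 CPM on day 1 and at 36.3, 22.9 and 25.6 CPM on day 3, a difference of 3.72 (SE 0.47, adjusted p = 6.75e-05), while Cdh1, E-cadherin, was counted at 953, 593 and 995 CPM on day 1 and at 723, 1278 and 1020.4 CPM on day 3 and was not called (log2 difference 0.24, SE 0.25, adjusted p = 0.507). Ctnnd1, p120 catenin, was higher by 1.42 (SE 0.19, adjusted p = 4.88e-05). Cdh1 fell in isolation 1 and rose in isolations 2 and 3, and its days overlapped, while Cdh2 rose in each isolation. Of 18 regulators and genes of epithelial to mesenchymal transition 7 were higher and 1, the epithelial factor Ovol2, was lower (4 higher without isolation 1 or isolation 3, and none lower without isolation 1 or isolation 2). Ovol2 was not called whichever isolation was left out (adjusted p = 0.135, 0.169 and 0.0962). Snai1 was counted at 2.49, 2.67 and 2.37 CPM on day 1 and at 15.3, 9.78 and 11.4 CPM on day 3, a difference of 2.25 (SE 0.49, adjusted p = 0.00291). Zeb1 (0.27) and Vim (log2 difference 1.1, SE 0.60, adjusted p = 0.186) were not called. Of epithelial genes, Esrp2, a splicing factor, was higher by 0.65 (SE 0.19, adjusted p = 0.019), a call that was lost whichever isolation was left out (adjusted p = 0.0599, 0.117 and 0.0614), and Epcam was not called (log2 difference −0.42, SE 0.26, adjusted p = 0.243). Of 20 claudins and tight junction genes 4 were higher and 1 lower (2 higher without isolation 2 or isolation 3, none lower without isolation 1 or isolation 2), and of 20 genes of ion and fluid transport 6 were higher and 3 lower. The 3 subunits of the epithelial sodium channel rose, with Scnn1g counted at 7.26, 24.4 and 21.4 CPM on day 1 and at 57.5, 114 and 111 CPM on day 3, a difference of 2.46 (SE 0.32, adjusted p = 4.13e-05), and Scnn1a and Scnn1b higher by 1.31 and 1.79. Cftr, the chloride channel, was counted at 91.1, 27.1 and 47.2 CPM on day 1 and at 4.78, 10.7 and 8.67 CPM on day 3 and was lower, with a log2 difference of −2.69 (SE 0.46, adjusted p = 4.46e-04).

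**Figure D4:**
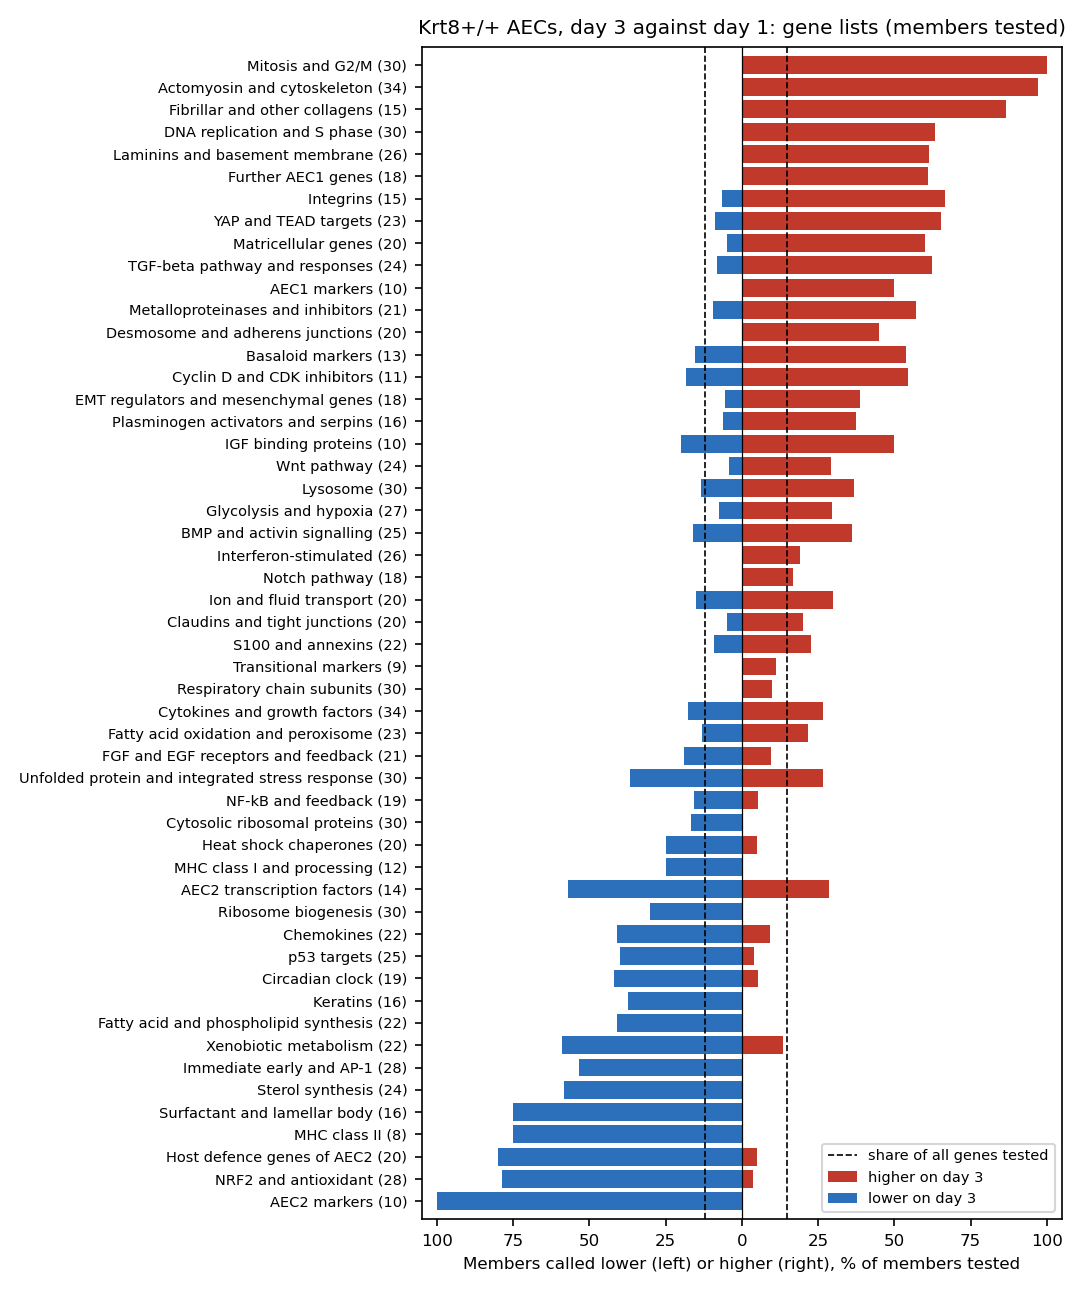
Each bar gives the percentage of a list's tested members called higher (right) or lower (left) on day 3 than on day 1 in WT AECs, for the lists with at least 8 members tested (number in parentheses), without the lists for other cell types. The dashed lines mark the shares among all genes tested, 14.7% higher and 12.1% lower. Mitosis (100% higher) and AEC2 markers (100% lower) mark the ends.

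A stricter set of reversals held the genes that moved at least 2-fold in both steps and reached a mean of 10 CPM on day 0, 1 or 3, a level chosen after the values were seen. There were 199 such genes with a symbol that fell and then rose, and 205 that rose and then fell. Among the former, Bub1, a spindle checkpoint kinase, was counted at 20.9, 17 and 18.1 CPM on day 0, at 2.79, 0 and 1.22 CPM on day 1 and at 45.3, 39 and 26 CPM on day 3. Cthrc1, a secreted matrix protein, was counted at 21.5, 32.6 and 36.6 CPM on day 0, at 3.74, 1.42 and 3.39 CPM on day 1 and at 65.2, 37.9 and 58 CPM on day 3. Cd248, endosialin, a stromal marker, was counted at 12.4, 6.71 and 4.32 CPM on day 0, at 0.147, 0.417 and 1.9 CPM on day 1 and at 20.5, 14 and 18 CPM on day 3. In each, the day 1 values lay below all others. Among the latter, Dio3 (ENSMUSG00000075707, chromosome 12, 110279068 to 110281097), which inactivates thyroid hormone, was counted at 0.127, 0.108 and 0.332 CPM on day 0, at 46.3, 3.59 and 34 CPM on day 1 and at 0, 0 and 0 CPM on day 3. It had 1177 reads on day 1 and none on day 3, at least 470-fold lower against a floor of 3 reads over the group. Arc, an activity-regulated gene best known from neurons, was counted at 2.79, 0.649 and 0.332 CPM on day 0, at 189, 15.2 and 131 CPM on day 1 and at 5.11, 6.28 and 5.72 CPM on day 3, a difference of −3.91 (SE 0.72, adjusted p = 8.12e-04). Eid3 was counted at 0.064, 0.108 and 0 CPM on day 0, at 15.8, 8.01 and 37.1 CPM on day 1 and at 0.59, 0.259 and 1.59 CPM on day 3, a difference of −4.63 (SE 0.48, adjusted p = 1.33e-05). All 3 were lower on days 0 and 3 than on day 1 in each isolation, and isolation 2 was the lowest on day 1. With no limit on the level, the largest reversals were of genes with few reads, such as Wnt3a, which had no read on day 1 and 77 on day 3, at least 21.4-fold higher, and Adcy10, which had 73 reads on day 1 and none on day 3, at least 29.1-fold lower. Adcy10 was not called without isolation 1 (adjusted p = 0.0817) or isolation 3 (0.132).

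The same step was read in KO AECs, where 2475 genes were higher (13.7%) and 1942 lower (10.8%). Of the 4836 genes called in WT AECs 3422 were called in the same direction in KO AECs (70.8% of the WT calls and 77.5% of the 4417 KO calls), and none in the opposite direction. The difference of the change between genotypes was tested for each gene, and no gene passed (0 by edgeR and 0 by DESeq2), with 302 at an unadjusted p under 0.05 by edgeR (1.67%) and 344 by DESeq2 (1.91%), of 18046. WT and KO libraries share the 3 dates, which this test does not use. With terms for date and day shared by the genotypes, added after the data were seen, 0 genes passed by edgeR, with 800 at an unadjusted p under 0.05 (4.43%) and a smallest adjusted p of 0.22 on 6 residual degrees of freedom. Plk1 was counted at 0.179, 1.75 and 1.24 CPM on day 1 and at 39.8, 40.2 and 33 CPM on day 3 in KO AECs, a difference of 5.08 (SE 0.56, adjusted p = 1.43e-05). Sftpc was counted at 64255, 11423 and 48191 CPM on day 1 and at 236, 205 and 378 CPM on day 3 in KO AECs, a difference of −7.12 (SE 0.58, adjusted p = 1.01e-06). Gsta1 was counted at 796, 1232 and 1388 CPM on day 1 and at 142, 110.3 and 172 CPM on day 3 in KO AECs, a difference of −3.02 (SE 0.40, adjusted p = 5.89e-05). Each moved in KO AECs in the direction it took in WT AECs, in 3 of 3 isolations. A difference between genotypes that is smaller than the spread between isolations allows to be called would not be seen here.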

How the data were processed

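AECs of 24 libraries were profiled by bulk RNA-seq of total RNA. The deposited table holds expected counts per gene as whole numbers, which the authors made before deposition; the submitters' processing notes name cutadapt 2.3, STAR 2.7.8a, RSEM 1.3.3 and GRCm38, with no role given. Values of near-identical genes depend on how reads were shared among copies. Of 55421 Ensembl identifiers 55154 had a symbol in GENCODE M21. edgeR 4.0.16 (R 4.3.3) was used: filterByExpr with a minimum count of 10 left 18046 genes, TMM scaling followed, and a quasi-likelihood model was fitted to all libraries with 8 groups and the isolation within genotype as a block (12 residual degrees of freedom), since the labels give paired libraries 1 batch date and 1 biological replicate number. Deviations of paired libraries correlated at 0.278, −0.0833 and 0.465. The labels give separate dates and biological replicate numbers but do not say whether these were separate mice, and p values measure the spread between these samples. Intervals and floors (3 reads) cover counting error only. Differences from the alternatives (other scaling, DESeq2 1.42.0, other samples, no filter) are given in the closing section. Members and lists were chosen with earlier results of these data known, and the named genes are those with the largest differences in each list, the largest rises, falls and reversals, and the defining members. The fit was also run on simulated counts, in which most genes were equal on days 1 and 3. These held no isolation effects and no outlying library, so that run does not bear on the pairing or on isolation 2. Some items are not reported here.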

Additional observations from a re-analysis of the deposited data

How the results depend on the processing

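Of the 4836 called genes, 4552 were tested in the fit of the 6 compared libraries, 4724 in that of the 12 WT libraries, 4806 to 4833 with 1 isolation left out and 4836 in the other alternatives, and none of those tested was called in the opposite direction. Across the 10 alternatives, 17.6% to 97.7% of the called genes kept their call. The 2-fold test, which asks for more than a difference from 0, called 476 higher and 375 lower genes, with 338, 89 and 49 new, continued and reversed among the higher and 132, 131 and 112 among the lower. The fit of the 6 compared libraries, with fewer residual degrees of freedom, called 1731 higher and 1173 lower, and the fit of the 12 WT libraries 683 reversed higher. Leaving out 1 isolation gave 1391 to 1868 higher and 890 to 1505 lower genes. The classes then held 678 to 735 (new higher), 329 to 372 (continued higher), 382 to 821 (reversed higher), 291 to 470 (new lower), 208 to 466 (continued lower) and 333 to 569 (reversed lower) genes. Limits of 0.5 and 10 CPM left 1 newly detected and 0 no longer detected gene. Without the replicate block, that is without pairing by isolation, 4740 genes were called, and 92.2% of the calls remained. Calls that were higher made up 54.8% of all calls, 49.5% with DESeq2 and 50% with DESeq2's size factors, with a median of all genes of −0.08 and −0.082. The share was 59.6% in the fit of the 6 libraries, 63.5%, 48% and 64.1% without isolation 1, 2 and 3, and 51.1% to 58.5% in the others. The genotype difference had 0 calls under each alternative run, the shared date terms included.

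The signs of genes that were not called turned under some alternatives. With DESeq2's test, its size factors and the 12 WT libraries, in this order, Ccnd1 differed by −0.02, −0.02 and −0.03, Dcn by −0.02, −0.02 and −0.03, and Krt8 by −0.03, −0.03 and −0.04, and without the filter Smad3 differed by 0.03. With DESeq2's test C1qa differed by 0.05. Leaving out single isolations, the lowest and highest log2 differences of the genes whose sign turned were −0.16 and 0.52 (Aqp5), −0.72 and 0.21 (C1qa), −0.11 and 0.12 (Ccnd1), −0.16 and 0.52 (Cdh1), −0.02 and 0.12 (Dcn), −0.07 and 0.15 (Krt8), −0.23 and 0.23 (Nqo1), −0.21 and 0.49 (Pdpn), −0.27 and 0.06 (Smad2), −0.2 and 0.3 (Smad3), −0.58 and 0.3 (Srebf1) and −0.03 and 0.3 (Tgfbr2). The cause of these changes was not tested. With 3 libraries a day and 10184439 reads in the smallest, genes of few reads are the least certain.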

Other observations

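Genes of the circadian clock fell in part between day 1 and day 3 of WT AECs, with 8 of 19 lower and 1 higher, against 12.1% and 14.7% of all genes (4 lower without isolation 1 or isolation 3, and none higher without isolation 2). Nr1d1 (REV-ERBα), a repressor in the clock, was counted at 154, 58.1 and 92.9 CPM on day 1 and at 34.5, 31.5 and 31.8 CPM on day 3, a difference of −1.58 (SE 0.30, adjusted p = 9.98e-04), with no overlap between days. Ciart, also a clock repressor, was counted at 26.7, 6.18 and 11.7 CPM on day 1 and at 3.01, 1.23 and 1.42 CPM on day 3, a difference of −2.9 (SE 0.52, adjusted p = 6.42e-04). The labels give no hour of harvest. Of 22 genes of xenobiotic metabolism 13 were lower and 3 higher (7 lower without isolation 1, and 1 higher whichever isolation was left out). Cbr2, a lung carbonyl reductase, was counted at 2482, 570.3 and 1976 CPM on day 1 and at 47.9, 46.2 and 36.7 CPM on day 3, a difference of −5.16 (SE 0.53, adjusted p = 5.65e-06). Cyp1b1, a target of the aryl hydrocarbon receptor, went the other way and was counted at 63.9, 199 and 138 CPM on day 1 and at 268, 643 and 427 CPM on day 3, a difference of 1.76 (SE 0.32, adjusted p = 6.63e-04). Both moved in 3 of 3 isolations without overlap.

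Of 30 lysosomal genes 11 were higher (36.7%) and 4 lower (13.3%), against 14.7% and 12.1% of all genes (6, 4 and 3 higher without isolations 1, 2 and 3, and 2 and 1 lower without isolations 1 and 3). Asah1, acid ceramidase, was counted at 111, 117 and 109 CPM on day 1 and at 207, 241 and 248 CPM on day 3, a difference of 1.04 (SE 0.12, adjusted p = 1.23e-05), and Npc2, a cholesterol carrier, at 961, 340.2 and 856 CPM on day 1 and at 189, 208 and 229 CPM on day 3, a difference of −1.74 (SE 0.32, adjusted p = 8.83e-04). Neither overlapped between days. In the Wnt list 7 of 24 were higher and 1 lower (4 higher without isolation 3; none lower without isolation 1 or isolation 3, and 2 without isolation 2). Fzd2, a Wnt receptor, was counted at 7.04, 6.43 and 4.61 CPM on day 1 and at 27.7, 28 and 26.9 CPM on day 3, a difference of 2.2 (SE 0.24, adjusted p = 8.82e-06), and Fzd1, Fzd6 and Fzd7, of the same family, were higher by 1.57, 0.81 and 1.03. Of 18 Notch genes 3 were higher (16.7%, near the 14.7% of all genes) and none lower (1 higher without isolation 1, and 2 lower without isolation 2). Jag1, a ligand, was counted at 39.6, 17.1 and 29.9 CPM on day 1 and at 84.2, 64.5 and 45.8 CPM on day 3, a difference of 1.16 (SE 0.27, adjusted p = 0.0047). Of 26 interferon-stimulated genes 5 were higher (19.2%, against 14.7% of all genes) and none lower (3, 3 and 2 higher without isolations 1, 2 and 3). Ifit2 was counted at 4.84, 6.26 and 2.58 CPM on day 1 and at 16.9, 16.7 and 15.5 CPM on day 3, a difference of 1.86 (SE 0.35, adjusted p = 9.75e-04).

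Lists with few calls or for other cells gave these values, beside 14.7% higher and 12.1% lower among all genes. In the NF-κB list 3 of 19 were lower and 1 higher (1 lower without isolation 3), with Nfkbia, its inhibitor, lower, with a log2 difference of −0.94 (SE 0.14, adjusted p = 1.96e-04). Of 22 S100 and annexin genes 5 were higher and 2 lower (3 higher without isolation 3, 1 lower without isolation 1), with S100g, a calcium-binding protein, lower, with a log2 difference of −4.26 (SE 0.48, adjusted p = 1.22e-05). Of 4 proliferin and prolactin genes 3 were higher. Of 10 epithelial markers 3 were higher and 1, Elf3, was lower (none lower without isolation 1). Of 9 lymphocyte markers 6 were lower (1, 3 and 3 without isolations 1, 2 and 3), with a summed level of at most 24.4 CPM on day 1 and 6.62 CPM on day 3. Of 15 endothelial markers 8 had enough counts to be tested, with a median log2 difference of 0.0. Of these 8, 1, Kdr, was higher and 1, Pecam1, was lower. Pecam1 had 123 reads on day 1 and none on day 3, at least 49.1-fold lower against a floor of 3 reads over the group. Of 3 neutrophil markers tested Mmp8 was higher (log2 difference 4.01, SE 0.63, adjusted p = 3.67e-04).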
